A study of Drosophila melanogaster with 8 samples.

Results

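The left arm of Drosophila melanogaster chromosome 2 (2L) was examined between its ends, in a ChIP-seq map of heterochromatin protein 1a (HP1a). A region was counted when it lay on 2L with its midpoint above 1000000 and below 21011545 (FlyBase release 5), so that the telomere-side 1 Mb and the centromere-side 2 Mb were left out and 20.0 Mb remained. This stretch held 551 of the 5697 regions of the authors' list for the whole replicate set, called the combined set here. It held 402 of 5406, 426 of 5127, 338 of 4903 and 274 of 4260 regions of the lists of ChIP replicates 1 to 4. All samples were wild-type Oregon-R embryos aged 14 to 16 h, with no treatment. For the 4 ChIP samples HP1a was precipitated with the antibody wa191, and each had an input sample of the same number as its control. Embryos were used whole, so every value is a mixture of all their cell types. Separate embryo collections are not named in the labels, so the spread between replicates may be technical. Read depth is unknown, and the absence of a weak region from a list does not show that HP1a was absent there. Replicates 1 and 2 carried the submitters' experiment numbers 1914 and 1916, whereas 2026 and 2027 belonged to replicates 3 and 4. What these numbers mark is not stated, and values are also set side by side for these pairs.

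HP1a binds histone H3 methylated at lysine 9 through its chromodomain, pairs with itself through its chromo shadow domain, and recruits further heterochromatin proteins. It is best known for coating pericentric heterochromatin, telomeres and chromosome 4. On the euchromatic arms it is found at scattered places, among them transposon remnants and some transcribed genes. Neither genes nor repeats were placed on the regions, since no annotation of the files' build was used here. Regions are therefore named by their position.

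HP1a-enriched regions covered a small part of 2L between its ends, in many short pieces spread over the whole stretch. The covered share was 5.14%, 5.87%, 4.19% and 3.39% in replicates 1 to 4. Their mean was 4.65% ± 1.08 (SD, n = 4). Replicates 1 and 2 were both above replicates 3 and 4, and the pairs did not overlap. The number of regions per Mb followed the same order among the replicates, with 20.1, 21.3, 16.9 and 13.7. Bases covered in any replicate made up 7.03% of the stretch. Of these bases, 39.0% were covered in all 4 replicates, 10.9% in 3, 25.6% in 2 and 24.4% in 1.

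Most regions were about 2 kb wide. The median width was 2054 ± 31.1 bp (SD, n = 4), and regions under 3 kb made up 79.6%, 77.7%, 84.6% and 84.7% of the lists of replicates 1 to 4. Widths piled up just above 2 kb, and 125 of the 551 combined-set regions (22.7%) lay between 2000 and 2199 bp. Within this pile the score ran from low to high at almost the same width, as the plot of width against score shows. The smallest region on 2L was 1301 bp wide in replicates 1 to 3 and 1302 bp in replicate 4. In the combined set it was 1001 bp, so that set held regions narrower than any on 2L in the replicate lists. Across regions of a list, wider regions tended to have higher scores, with Spearman's rho of 0.648, 0.717, 0.802 and 0.795 in replicates 1 to 4. These coefficients describe 402, 426, 338 and 274 regions that share a library, and carry no test. The score is the authors' own, on a scale that is not stated, and is used here within a list.

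**Figure D1:**
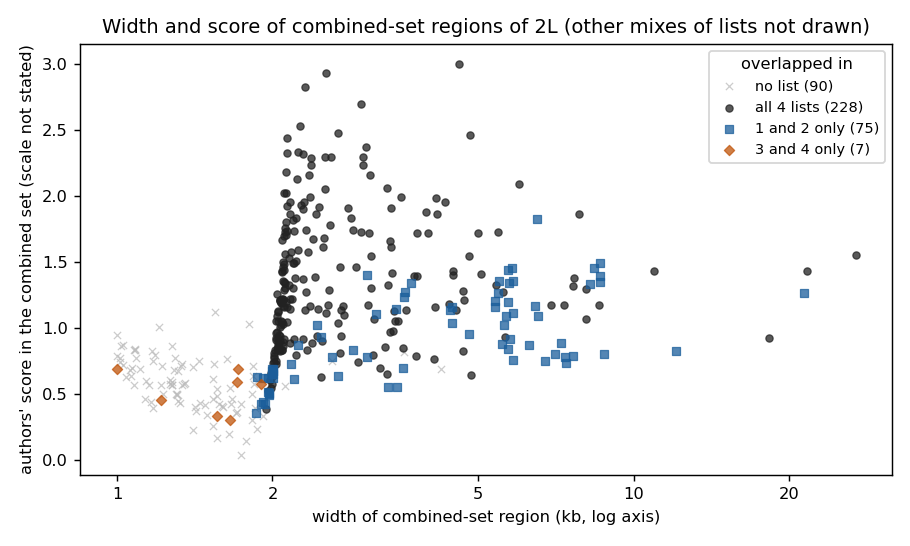
Width (kb, log axis) and authors' score of the combined-set regions of 2L, 1 point per region, marked by the replicate lists that overlap them; regions overlapped in other mixes of lists are not drawn. Regions overlapped in no list (90) lie mostly below 2 kb and none above a score of 1.12, those overlapped in all 4 lists (228) rise steeply just above 2 kb, and those overlapped in replicates 1 and 2 only (75) reach widths above 5 kb at middle scores.

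Compared with the autosomal arms 3L and 3R between their ends, 2L was covered to nearly the same extent but by fewer regions. The ratio of the covered share of 2L to the mean of 3L and 3R was 0.951, 0.972, 0.991 and 1.01 in replicates 1 to 4, with a mean of 0.980 ± 0.0239 (SD, n = 4). Of the 4 replicates, 3 lay below 1 (p = 0.25 by an exact permutation test that flips signs, two-sided; Benjamini-Hochberg adjusted p = 0.5 over 6 tests). This sign-flip test cannot go below 0.125 with 4 replicates. Without the window of 2L from 20000001 to 21000000 the log2 ratio went from -0.03 to -0.11, and 4 of 4 replicates were below 0. That window was the densest 1 Mb window of 2L and was taken out of 2L alone, so a lower ratio followed from the choice. By number, 2L held 18.0 ± 3.41 regions per Mb, against 20.7 ± 4.38 on 3L and 20.2 ± 3.97 on 3R (SD, n = 4). Within replicates the ratio of 2L to 3L was 0.874 ± 0.0222 and that of 2L to 3R was 0.892 ± 0.0127. Both ratios were below 1 in 4 of 4 replicates, and the log2 ratio to the mean of both arms was -0.18 (exact sign-flip permutation p = 0.125). The mean width on 2L was correspondingly 1.11 ± 0.0143 times that on 3L and 1.11 ± 0.0151 times that on 3R, although the median width differed little. Without the window from 20000001 to 21000000 of 2L, both mean-width ratios were 1.07 ± 0.0196, above 1 in 4 of 4 replicates. The log2 ratio of the median width of 2L to the mean of 3L, 3R and X was 0.01 ± 0.01, with 3 of 4 values above 0 (p = 0.375, adjusted p = 0.562 over 6 tests, exact sign-flip permutation). In the higher-scoring 50% of each whole list, which left 155, 175, 72 and 45 regions of 2L, it was 0.13, above 0 in 4 of 4.

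Wide regions covered more of 2L than of 3L and 3R. Regions of 5 kb or more covered 0.879%, 1.48%, 0.623% and 0.475% of 2L in replicates 1 to 4. This was 1.37, 1.35, 1.85 and 2.15 times the share they covered on 3L, and 2.06, 1.97, 2.86 and 2.91 times that on 3R. Such regions numbered 26, 40, 14 and 9 on 2L in replicates 1 to 4. On 3L they numbered 23, 38, 11 and 7, and on 3R 18, 29, 8 and 6. The ratios of replicates 3 and 4 thus rest on few regions. Narrower regions covered 0.895 ± 0.0270 times as much of 2L as of 3L and 0.882 ± 0.0273 times as much as of 3R (SD, n = 4; below 1 in 4 of 4 replicates). The split at 5 kb was chosen after the values were seen and these ratios carry no test. Against X the ratio was 1.06, 1.30, 0.946 and 0.957, above 1 in replicates 1 and 2 only. The last 1 Mb of the stretch, taken out of 2L alone, bore on these ratios. Without the window from 20000001 to 21000000 the ratio to 3L was 1.18, 1.15, 1.22 and 1.14, that to 3R was 1.79, 1.68, 1.88 and 1.54, and that to X was 0.922, 1.11, 0.623 and 0.507.

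Against X, 2L was covered less in every replicate. The ratio of the covered share of 2L to that of X was 0.784, 0.780, 0.590 and 0.602 in replicates 1 to 4, with a mean of 0.689 ± 0.107 (SD, n = 4). All 4 values were below 1 (exact sign-flip permutation p = 0.125, adjusted p = 0.375 over 6 tests). Replicates 3 and 4 were lower in this ratio than replicates 1 and 2, and no test of the difference between them was made. The median score on 2L differed from the mean of the medians of 3L, 3R and X by -0.04, 0.03, -0.02 and -0.02 in replicates 1 to 4 (exact sign-flip permutation p = 0.5, adjusted p = 0.6 over 6 tests). In the whole lists, the median 2L region stood at percentile 38.6, 41.6, 25.6 and 23.7 of all scores in replicates 1 to 4. The 100 highest scores of each list included 6, 7, 0 and 0 regions of this stretch. In the lists as a whole it held 402 of 5406, 426 of 5127, 338 of 4903 and 274 of 4260 regions. The counts of replicates 1 and 2 were thus near its share of the list, and those of replicates 3 and 4 below it.

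**Figure D2:**
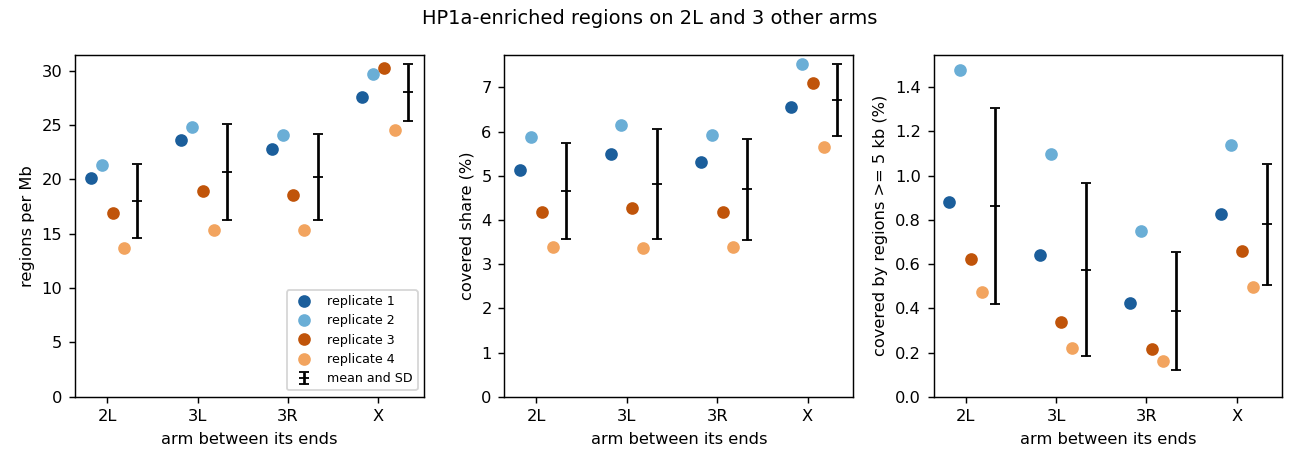
Regions per Mb, covered share (%) and share covered by regions of 5 kb or more (%) on 2L, 3L, 3R and X between their ends; points are the 4 ChIP replicates, and the black bars the mean and SD. 2L has the lowest number of regions per Mb in each replicate, a covered share close to that of 3L and 3R, and a higher share in regions of 5 kb or more than 3L and 3R.

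When the stretch was cut at its middle, the direction of the difference in covered share depended on the replicate and on the last 1 Mb. The telomere side was covered over 5.00%, 5.84%, 4.36% and 3.44% in replicates 1 to 4 and the centromere side over 5.27%, 5.91%, 4.02% and 3.35%. The ratio of the centromere side to the telomere side was 1.05, 1.01, 0.922 and 0.973, above 1 in replicates 1 and 2 and below 1 in replicates 3 and 4 (exact sign-flip permutation p = 0.75, adjusted p = 0.75 over 6 tests). By number, the centromere side held fewer regions in 4 of 4 replicates, with 196, 201, 155 and 127 against 206, 225, 183 and 147 (mean log2 ratio -0.17, p = 0.125, exact sign-flip permutation). In the higher-scoring 50% of each whole list the covered share was higher on the centromere side in 4 of 4 replicates, at a mean log2 ratio of 0.42 (exact sign-flip permutation p = 0.125). This cut left 155, 175, 72 and 45 regions of 2L in replicates 1 to 4. The window from 20000001 to 21000000 held 9.89%, 9.99%, 18.3% and 27.4% of their covered bases. Without this window the mean log2 ratio was 0.07, with 2 of 4 above 0. In the full lists without this window, the log2 ratio of the covered shares was -0.19, with 4 of 4 replicates lower on the centromere side. The window was the densest 1 Mb window in each replicate and lay on the centromere side. Taking it out, an alternative added after seeing the data, thus set the direction of this change, and no test is given. With 1 Mb more taken off at each end, which also took out most of this window, the log2 ratio was -0.23, again lower in 4 of 4.

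Coverage was uneven on a finer scale. Of 20 windows of 1 Mb, all held regions in all 4 replicates, with mean shares from 2.23% to 9.26% and a median of 4.56%. The window from 20000001 to 21000000, next to the excluded centromere-side end, ranked first in each of the 4 replicates, with 9.75%, 10.6%, 9.34% and 7.36%. It held 9.49%, 9.00%, 11.1% and 10.8% of the covered bases of the stretch. The window from 16000001 to 17000000 was second by mean and in replicates 1, 2 and 4, with 7.72%, 8.09%, 6.05% and 5.65%. The window from 17000001 to 18000000 beside it had the lowest mean, with 3.45%, 3.86%, 0.985% and 0.628%. Replicates 3 and 4 were sparsest there relative to the others: their mean was 0.221 times that of replicates 1 and 2, against a median ratio of 0.704 over the 20 windows. That window held 3 combined-set regions of 5 kb or more, and each of them was overlapped in replicates 1 and 2 only.

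In 200 windows of 100 kb the median mean share was 3.66%. No replicate had a region in 17 windows, all 4 replicates covered part of 127, and 13 had a mean share above 10%. The 20 densest windows held 29.9%, 30.1%, 33.8% and 37.6% of the covered bases in replicates 1 to 4. Pearson's r over the 200 windows was 0.952 for replicates 1 and 2 and 0.961 for replicates 3 and 4, and 0.793 to 0.835 across. Spearman's rho was 0.925 and 0.901 within the pairs and 0.647 to 0.729 across. These values describe windows of the same arm and carry no test. Stretches of at least 100 kb without a region in any of the 5 lists numbered 35 and summed to 4.90 Mb, 24.5% of the arm between its ends. The longest ran from 1303143 to 1570295 (267153 bp), 15913065 to 16140857 (227793 bp) and 17825295 to 18051999 (226705 bp).

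**Figure D3:**
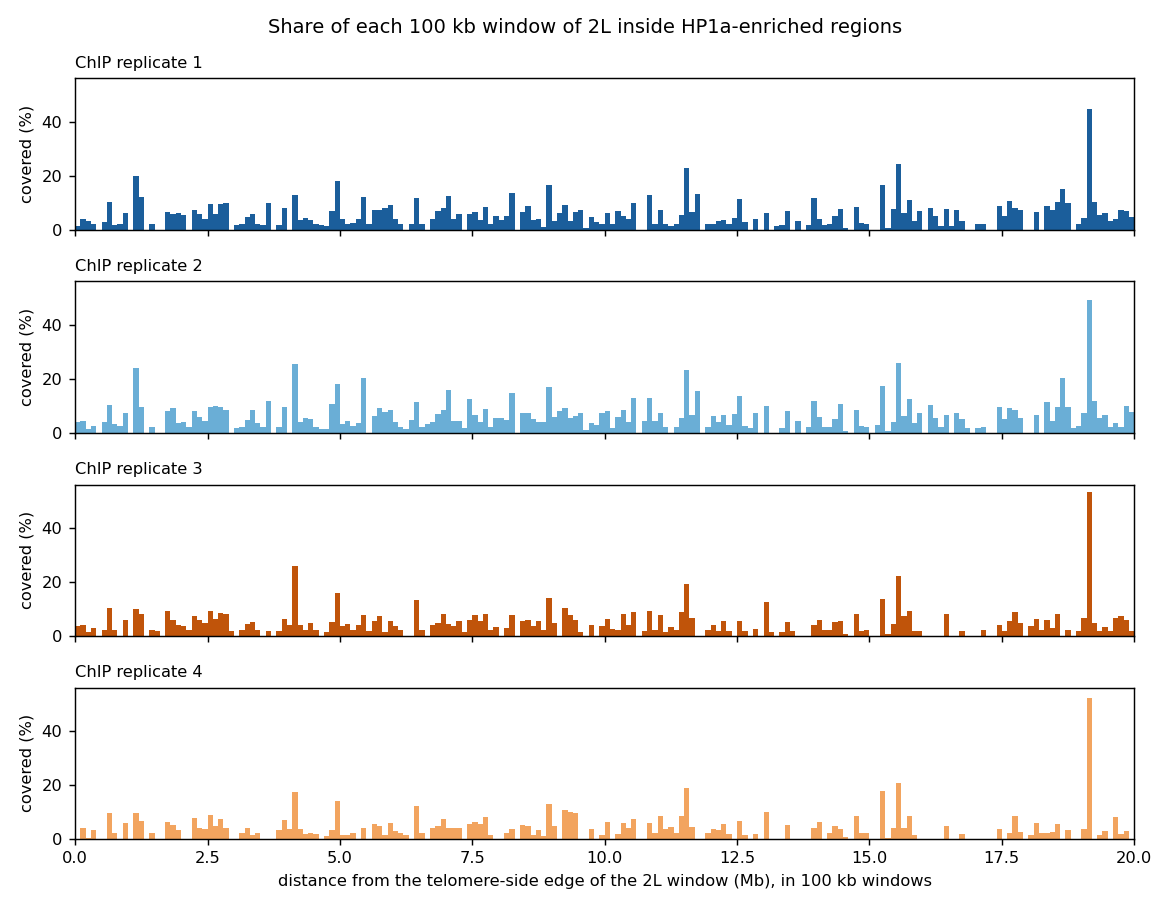
Share (%) of each 100 kb window of 2L inside HP1a-enriched regions, 1 panel per ChIP replicate, by distance (Mb) from the telomere-side edge of the stretch. One window near the right end, from 20100001 to 20200000, stands at 44.9% to 53.7% in the 4 replicates, while the median window has a mean share of 3.66%.

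The densest place on 2L between its ends was a block of 118983 bp from 20099554 to 20218536, which took in the window from 20100001 to 20200000. That window was covered over 44.9%, 49.3%, 53.7% and 52.4% in replicates 1 to 4, on average 50.1% ± 3.89 (SD, n = 4). The whole block was covered over 43.5%, 48.3%, 49.2% and 44.4%, and over its length the pairs of replicates overlapped. The block made up 0.595% of the length of the stretch and held 5.03%, 4.89%, 6.99% and 7.84% of its covered bases. Its core was the widest combined-set region overlapped in all 4 replicates, 26899 bp from 20172847 to 20199745. This region was covered over 83.6%, 98.9%, 91.8% and 92.5% in replicates 1 to 4, in 4 pieces in replicate 1 and in 1 piece in each of the others. The next widest, of 21685 bp from 20099554 to 20121238, was covered over 87.4%, 87.0%, 99.3% and 100%, in 3 pieces in replicate 1 and in 1 piece in the others. Between them, a smaller region about 50 to 53 kb from the start of the block was covered in part in every list, while others were in some lists only. The right end, covered in replicates 1 and 2, was uncovered in replicates 3 and 4.

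The block ranked differently in the pairs of replicates. Among the 2L regions of each list, the highest-scoring region of the block was rank 56 of 402, 65 of 426, 7 of 338 and 5 of 274. The widest region of each list lay in the block, at 13136, 26594, 25033 and 24886 bp. On 3L, 3R and X between their ends the widest region of a replicate list ranged from 7695 to 17293 bp, or, without 3R in replicate 2, from 7695 to 11596 bp.

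**Figure D4:**
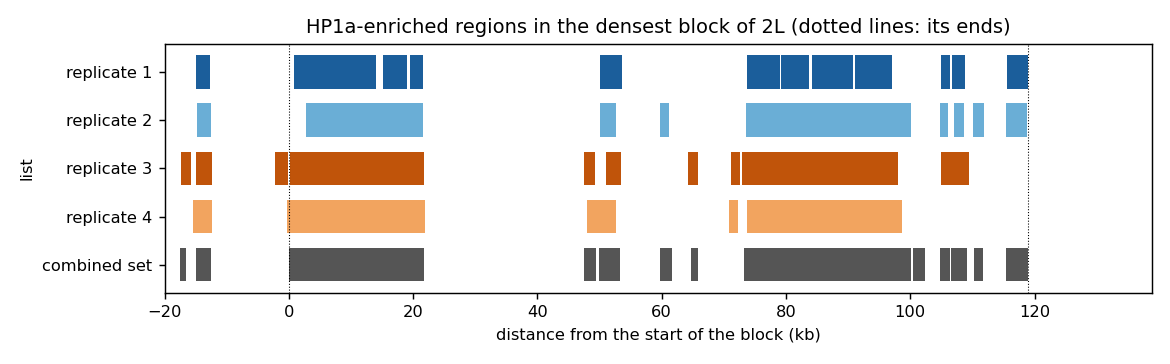
HP1a-enriched regions of the 4 replicate lists and the combined set in the densest block of 2L, drawn to scale by distance (kb) from its start; the dotted lines mark its ends at 0 and 119 kb. The pieces near 0 to 22 kb and near 73 to 100 kb are covered in every list, and replicate 1 splits both into several pieces.

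The next densest windows each held several regions. From 16500001 to 16600000 the covered share was 24.4%, 25.9%, 22.2% and 20.7%, with 7 regions in each of the 4 lists. This window held a region of 10942 bp that was overlapped in all 4 replicates, from 16511678 to 16522619, which each list split into 2 pieces and covered over 85.2%, 98.0%, 67.0% and 67.9%. From 12500001 to 12600000 the share was 22.8%, 23.4%, 19.2% and 19.0%, with 8 regions in each of the 4 lists, and the widest of its combined-set regions measured 7671 bp. The same number of pieces was thus called in both pairs of replicates. Among the widest, the region of 18258 bp from 5165250 to 5183507 varied most among the replicates, which covered it over 33.8%, 92.6%, 81.2% and 49.3%. The region of 8576 bp from 11540041 to 11548616 was covered over 93.0%, 95.5%, 83.4% and 86.2%. By runs of combined-set regions with gaps of at most 5 kb, the 3 that held the most covered bases were 20172847 to 20218536 with 38037 bp, 20099554 to 20121238 with 21685 bp and 19652321 to 19673726 with 21406 bp. Replicates 1 and 2 covered 70.6% and 94.5% of the last of these, and replicates 3 and 4 covered 0%.

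The highest scores belonged to regions under 5 kb away from the block. Among combined-set regions overlapped in all 4 replicates, the first by score (3.00) was 4597 bp from 2752031 to 2756627. The replicates covered it over 98.7%, 99.7%, 98.8% and 96.6%, and it ranked 3, 1, 5 and 15 among the 2L regions of replicates 1 to 4. The second (2.93) was 2539 bp from 16715113 to 16717651, with ranks 1, 2, 2 and 2. The third (2.83) was 2307 bp from 3579776 to 3582082, with ranks 4, 3, 3 and 3. Both regions thus stayed among the first 4 of every list. The fourth (2.69) was 2973 bp from 14408556 to 14411528, with ranks 2, 4, 1 and 1. It held the highest score of 2L in replicates 3 and 4, and the replicates covered it over 88.1%, 95.8%, 78.9% and 83.4%.

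The other 6 of the 10 highest scores ran from 2.53 down to 2.34. They lay at 5236341 to 5238603, 5106811 to 5109493, 16283653 to 16288468, 12506696 to 12508831, 8534038 to 8537069 and 15910826 to 15913064. Their ranks spread further, and the last of them ranked 6, 19, 21 and 58 in replicates 1 to 4. Of the 10 regions, 7 were among the first 10 scores of 2L in replicate 1, 9 in replicate 2, 6 in replicate 3 and 3 in replicate 4. Their widths were 2136 to 4816 bp, with a median of 2611 bp against 2090 bp for all 551 combined-set regions. Of the 10, 7 were under 3 kb, near the 76.4% of all 551, so they were not narrower than the rest. They fell evenly on both sides of the middle of the stretch, 5 on each. A further combined-set region lay within 20 kb of 7 of them, a share near the 74.2% of all 551 regions. Set against their whole lists, the 10 stood between percentiles 92.0 and 99.5 in replicate 1 and 95.8 and 99.8 in replicate 2. In replicate 3 they stood between percentiles 64.5 and 95.4 and in replicate 4 between 44.5 and 93.2.

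Of the 551 combined-set regions of 2L between its ends, 228 shared at least 1 bp with a region in each of the 4 replicate lists (41.4%, 95% Wilson interval 37.3% to 45.5%, counting error only). Over all sequences this share was 47.1%, and over 3L, 3R and X between their ends it was 39.9%, so the 2L share was near that of the other arms. The combined set shares its libraries with the lists, and the share is a description. A further 75 regions (13.6%, 11.0% to 16.7%) were overlapped in replicates 1 and 2 only, against 11.6% on the other 3 arms and 9.02% over all sequences. In replicates 3 and 4 only there were 7 (1.27%, 0.617% to 2.60%), against 2.71% and 3.12%. In none there were 90 (16.3%, 13.5% to 19.7%), against 15.4% and 13%. By arm, the share in replicates 1 and 2 only was 14.1% on 3L, 13.8% on 3R and 7.60% on X. The share in replicates 3 and 4 only was 2.21%, 1.46% and 4.29% on these arms. In both, 2L was nearer to 3L and 3R than to X.

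Whether a region was shared went with its score. Of the 79 combined-set regions with a score of at least 1.5, 78 were overlapped in all 4 replicates, and of the 91 with a score below 0.5 only 1 was. These counts are a description, since the combined set shares its libraries with the lists. The same counts on other arms are not given here. Within each replicate list, regions overlapped in all 3 others had a higher median score than those overlapped in none, by 0.400, 0.581, 0.283 and 0.153 in replicates 1 to 4 (p = 0.125, adjusted p = 0.375 over 6 tests, exact sign-flip permutation). The lists are compared with each other there, so these 4 values are not independent. Each list holds called regions only, so this direction was partly built in and the test adds no support. Regions overlapped in none numbered only 22, 50, 25 and 11 in replicates 1 to 4. Their median widths were 1429, 1792, 1613 and 1612 bp, against 2110, 2157, 2100 and 2055 bp for those overlapped in all 3. In the highest-scoring 25% of each list, 93 of 100, 95 of 106, 83 of 84 and 67 of 68 regions were overlapped in all 3 other lists. In the lowest 25% it was 34 of 100, 20 of 106, 32 of 84 and 52 of 68. Replicate 4, the shortest list, was contained most fully in the others, with 84.7% of its regions overlapped in all 3 of them. The other way round, replicate 4 overlapped 61.2% of the regions of replicate 1 and 58.0% of those of replicate 2.

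Overlap was greater within the pairs of experiments than across them. The Jaccard index of covered bases was 0.738 for replicates 1 and 2 and 0.699 for the pair of replicates 3 and 4, against 0.480 to 0.573 for the 4 pairs across. For 214 combined-set regions met by exactly 1 region in every list, the borders differed little. The median difference of the start lay between 27.0 bp for replicates 1 and 2 and 60.5 bp for replicates 2 and 4, and that of the end between 29.0 and 72.0 bp for the same pairs. Spearman's rho of their scores was 0.852 for replicates 1 and 2, 0.802 for replicates 3 and 4 and 0.620 to 0.763 across, over regions that share libraries and with no test.

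The pairs differed most in wide regions. Of the 57 combined-set regions of 5 kb or more, 34 were overlapped in replicates 1 and 2 only (59.6%), 18 in all 4 (31.6%) and 0 in replicates 3 and 4 only. On 3L, 3R and X between their ends 57.2% of such regions were overlapped in replicates 1 and 2 only and 31.1% in all 4, so 2L did not stand apart in this. Over all sequences the shares were 15.4% and 77.8%. Among the 421 combined-set regions of 2L under 3 kb, 27 were overlapped in replicates 1 and 2 only (6.41%) and 162 in all 4 (38.5%). By bases, the replicates covered 67.7%, 85.1%, 31.1% and 29.4% of the wide regions, and 62.8%, 69.3%, 58.1% and 44.4% of those under 3 kb. The median width of regions overlapped in replicates 1 and 2 only was 4414 bp, against 2297 bp for those overlapped in all 4 and 1338 bp for those overlapped in none. Combined-set regions reached down to 1001 bp, whereas no 2L region of a replicate list was narrower than 1301 bp.

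**Figure D5:**
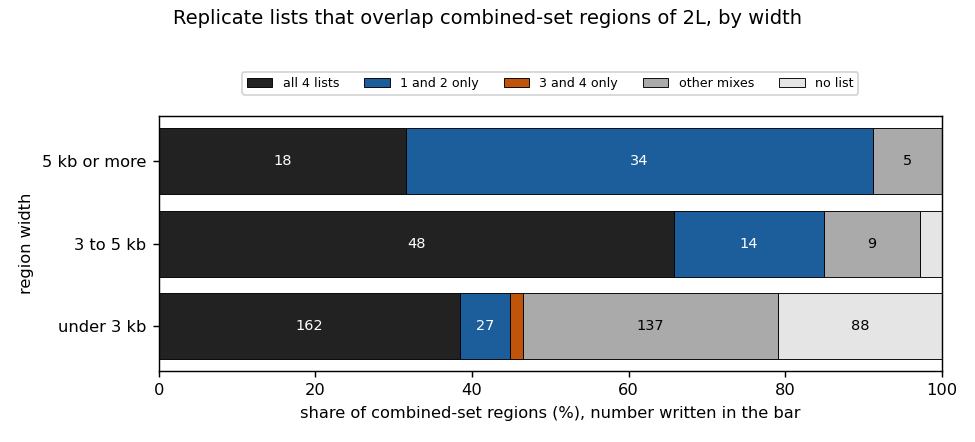
Share (%) of combined-set regions of 2L overlapped in all 4 replicate lists, in replicates 1 and 2 only, in replicates 3 and 4 only, in other mixes of lists or in no list, by width of the region; the numbers in the bars are regions. Of 57 regions of 5 kb or more, 34 are overlapped in replicates 1 and 2 only, and of 421 regions under 3 kb, 27 are.

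The regions of replicates 1 and 2 only with the highest combined scores were those at 10137499 to 10143996 (6498 bp, score 1.82), 4661379 to 4669995 (8617 bp, score 1.49) and 13559960 to 13565769 (5810 bp, score 1.46). The 2 lists covered the first over 97.7% and 97.4%, where it ranked 29 of 402 and 59 of 426. It was thus among the higher scores of 2L in both lists. The regions of replicates 3 and 4 only were narrower and scored lower. The first by score were those at 19291219 to 19292933 (1715 bp, score 0.692), 19022985 to 19023985 (1001 bp, score 0.689) and 12265841 to 12267547 (1707 bp, score 0.595). The regions overlapped in no list with the highest scores were those at 1678941 to 1680488 (1548 bp, score 1.12), 12939818 to 12941620 (1803 bp, score 1.03) and 10371504 to 10372711 (1208 bp, score 1.01). The first and second of these lay 277 and 307 bp from another combined-set region. Of the 90 regions overlapped in no list, 25 lay within 1 kb of another combined-set region (27.8%), against 13.6% of those overlapped in all 4 and 19.4% of all 551.

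At the edges of the stretch, the first combined-set region inside the telomere-side edge ran from 997342 to 1006093 with a score of 0.800, and the last one outside from 983943 to 985065 with 0.724. At the centromere-side edge the last region inside ran from 20976322 to 20981780 with a score of 1.27, and the first one outside from 21051309 to 21052543 with 0.274. Both regions inside were overlapped in 2 replicates and both outside in 0.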

How the data were processed

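HP1a ChIP-seq was measured in 4 ChIP samples with 4 inputs. The authors deposited 5 lists of enriched regions with one score per region, whose unit is not stated. Per the file headers, coordinates are FlyBase release 5, and per the submitters' processing notes reads were aligned with Bowtie 0.12.7. Not given in the sources used here are the peak caller, its threshold, the filters and how the combined set was made. Depth is unknown, so no interval on single regions is given, and other intervals cover counting error only.

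Regions running past a sequence end were clipped. The covered share is the bases of the counted regions over the length of the stretch, and 3L, 3R and X were cut in the same way (telomere-side 1 Mb and centromere-side 2 Mb left out). 2R was not used here. Log2 ratios or differences were taken inside each replicate and tested by an exact permutation test that flips their signs (two-sided), with Benjamini-Hochberg adjustment over 6 tests. Regions were named by rule: the 10 highest scores and 5 widest overlapped in all 4 replicates, the 3 highest scores in replicates 1 and 2 only, 3 and 4 only and none, the 3 densest 100 kb windows, the 3 longest empty stretches and the 3 largest runs. The block, the 5 kb width split, the score steps, the highest and lowest 25% and the regions at the edges were added afterwards. The members and lists were chosen with earlier results of these data known. A gene table of release 6 was not used, since its build differs, so the planned comparison with gene starts was not made. Code was tested on simulated lists. Python 3.11.15, NumPy 2.4.6, SciPy 1.17.1 and Matplotlib 3.10.9 were used.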

Additional observations from a re-analysis of the deposited data

Results flagged for a closer look

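Dixon's test at the 95% level was applied to 67 values with 4 replicates each, of which chance would mark about 1 in 20, or 3.35. It marked 2. The widest region of 2L between its ends measured 13136 bp in replicate 1 but 24886 to 26594 bp elsewhere. Replicate 4 covered 95.1% of the region from 15910826 to 15913064, below the 98.3% to 98.7% of the other replicates.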

How the results depend on the processing

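No paired analysis was possible because the input samples that share replicate numbers with the ChIP samples have no list of their own here. Of 87 alternatives for the 8 main results, 74 kept the direction of the mean or, for the overlaps, the value within its spread, though sizes could differ. With the 50% of regions that scored highest in a list, the mean log2 ratio of the covered share of 2L to 3L and 3R was 0.25 and that of the centromere side to the telomere side was 0.42, against -0.03 and -0.02 with the full lists. Without 20000001 to 21000000 as well, an alternative added after seeing the data, they were 0.062 and 0.070. In the higher-scoring 50%, the share of regions overlapped in all 4 replicates was 12.9% and the mean Jaccard index 0.392, against 41.4% and 0.588. This cut was made on each whole list and left 155, 175, 72 and 45 regions of 2L in replicates 1 to 4. The lists compared thus differed in size, and these values do not show that high-scoring regions were shared less. In the highest-scoring 25% of each 2L list, 93.0%, 89.6%, 98.8% and 98.5% of regions were overlapped in all 3 other full lists. In replicates 1 and 2 alone, also added afterwards, the log2 ratio of the sides was 0.047, the share of regions overlapped in both 63.0% and the Jaccard index 0.738. Fewer lists were required for that share, so it could only stay or rise. In replicates 3 and 4 alone the log2 ratio of median widths was -0.00052, against 0.0070, and the Jaccard index 0.699. In the full lists without the window from 20000001 to 21000000, the log2 ratio of the sides went to -0.19 and with 1 Mb more off each end to -0.23, where replicates 1 and 2 also fell below 0. Against 3L and 3R these alternatives gave -0.11 and -0.08, and the number of regions per Mb gave -0.18. The window from 20000001 to 21000000 was the densest 1 Mb window of 2L and was taken out of 2L alone. Lower ratios without it thus followed from the choice. The log2 ratio of median widths was 0.13 in the higher-scoring 50%.

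Leaving out 1 replicate at a time, the log2 ratio of covered shares ranged from -0.04 to -0.01 against 3L and 3R, from -0.62 to -0.48 against X and from -0.046 to 0.018 between the sides, the last above 0 without replicate 3. The log2 ratio of median widths ranged from 0.0044 to 0.010, the difference of median scores from -0.03 to -0.0059 against the other arms and from 0.234 to 0.365 between shared and unshared regions. The share overlapped in all replicates ranged from 42.1% to 48.6%, the latter without replicate 4, and the mean Jaccard index from 0.570 to 0.614. With a list left out fewer lists were required, so this share could only stay at 41.4% or rise. For 24 named regions and 3 windows, 66 of 78 alternatives gave the same number of replicates or a share within 1 SD. Of the 5 widest regions, 20172847 to 20199745 was matched in 3, 16511678 to 16522619 in 2 and 5165250 to 5183507 in 0 replicates with reciprocal overlap of at least 50%. The causes of these changes were not tested. Unknown depth limits what the absence of a weak region from a list can show.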
